A study of Homo sapiens with 6 samples.

Results

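The genes described here are the protein-coding members of 5 families of guidance ligands and receptors in MDA-MB-231 cells, a human triple-negative breast cancer (TNBC) line. They were chosen by gene symbol, with earlier results of these data known. They number 53 of the 58735 genes in the count table, namely 20 semaphorins, 9 plexins, 2 neuropilins, 14 Eph receptors and 8 ephrins. Wild-type cells received, for 24 h, either vehicle or SCH, a freeze-dried water extract of the herb Salvia chinensis Benth, at 100 mg/l, with 3 samples in each group. What the vehicle contained is not given in the sources used here, and the medium is RPMI-1640 in the labels and DMEM in the methods. The samples are called biological repeats of a single cell line, but nothing says that they came from separate cultures on separate days, so the p-values measure the spread between these samples. The vehicle-treated samples held 20291379, 18714240 and 18334857 counts on genes and the SCH-treated samples 16836369, 17979434 and 18414924. Between 0.239% and 0.262% of these counts fell on the 53 guidance genes.

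The cells carried the markers of the line. All 10 genes of a list of MDA-MB-231 markers, such as VIM, AXL and CD44, lay above 1 FPKM (fragments scaled to gene length and to a depth factor of the sample, the deposited measure of level). Their summed level was 1715, 1744 and 1654 FPKM with vehicle and 1335, 1332 and 1341 FPKM with SCH, the most abundant was LGALS1 (594 ± 40.0 FPKM with vehicle, SD), and 9 of the 10 fell (29.4% of all tested genes). Of 7 luminal or epithelial genes expected to be missing, ESR1, PGR, CDH1, TFF1 and ELF5 were too low to test, with ELF5 at 0 counts, while GATA3 (3.84 FPKM with vehicle) and FOXA1 (0.995 FPKM) were low but measurable. Among 9 endothelial markers, CDH5, VWF, TEK, TIE1, CLDN5 and EMCN were too low to test. The summed endothelial level of 36.9, 37.3 and 33.5 FPKM with vehicle and 49.5, 46.8 and 48.6 FPKM with SCH was mostly ESAM (34.5 FPKM with vehicle), whose rise was called (log2 fold change 0.44, adjusted p = 2.76e-07). The other tested endothelial markers, PECAM1 and KDR, did not pass (log2 fold changes 0.16 and -0.23).

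Semaphorins are secreted or membrane-bound proteins that steer migrating cells and growing axons. They signal through plexins, whose cytoplasmic part switches off small GTPases of the Ras and Rap type, and the secreted class 3 members mostly need a neuropilin as the ligand-binding co-receptor. Ephrins are membrane-bound ligands of the Eph receptor tyrosine kinases: the A type is held by a lipid anchor, the B type crosses the membrane, and a signal can pass into both the Eph-bearing and the ephrin-bearing cell at the point of contact. Both systems are known for wiring the nervous system and for patterning blood vessels, and in carcinoma cells they are studied for adhesion, motility and invasion.

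SCH treatment shifted most of the guidance genes that could be measured, as many of them upward as downward. Of the 53 genes, 51 had at least 1 count, and 43 passed the filter on low counts and were tested with edgeR's quasi-likelihood test, in a fit of all 14736 genes past that filter. At an adjusted p under 0.05 (Benjamini-Hochberg), 36 of the 43 (83.7%) had changed, against 58.7% of all tested genes, with 18 raised (29.3% of all tested genes) and 18 lowered (29.4%). The 7 others did not pass, namely SEMA3C, SEMA4C, SEMA4G, SEMA6D, EFNA3, EPHA2 and EPHA5. The log2 fold changes of the 43 genes had a median of -0.030, and those of all tested genes a median of -0.0034. In 35 of the 43, the samples of the groups did not overlap in normalised count (62.4% of all tested genes), and SEMA3B was the called gene whose groups overlapped. A change of at least 1 on the log2 scale was called in 9 of the 43, 5 raised and 4 lowered, against 8.77% of all tested genes. Of these 9, the rises of SEMA3G and EPHB3 and the falls of PLXNA4 and EPHA6 are of genes that passed the filter through the samples of a single group, the one where they were high. Without such genes, 5 of 39 (3 raised and 2 lowered) reached that size, against 6.37% of all genes past the filter in both groups, and 32 of 39 had changed, against 60.6%. Among the 29 with a mean count of 100 or more, 26 (89.7%) had changed, 11 raised and 15 lowered, beside 66.6% of all genes at that depth. In bulk RNA, fewer cells that express a gene and less RNA of it per cell cannot be told apart.

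**Figure D1:**
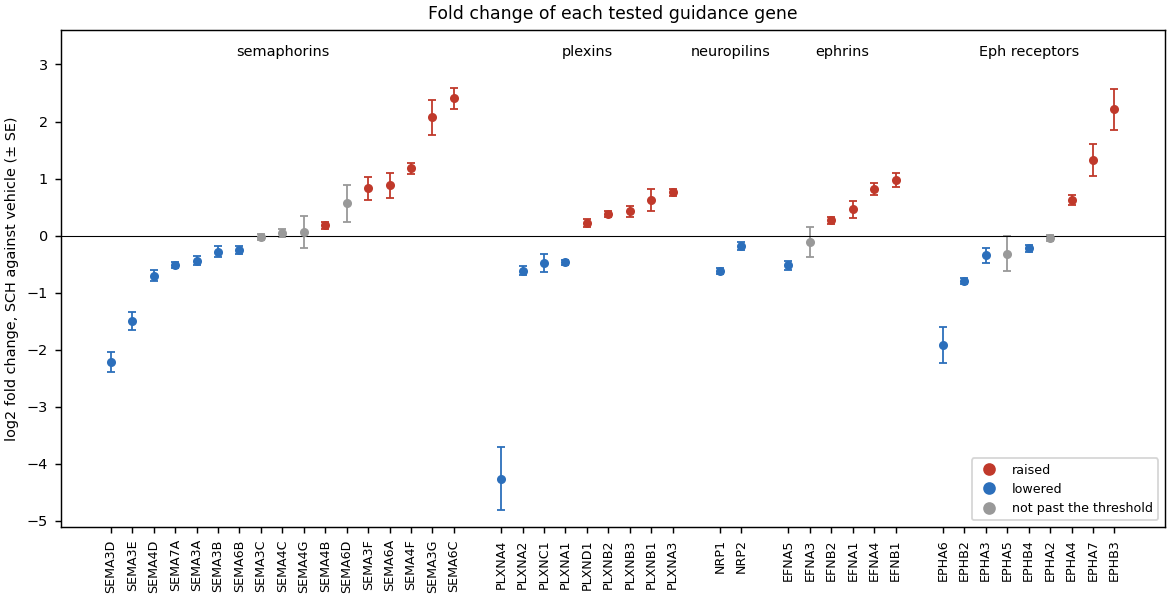
Log2 fold change of SCH against vehicle (vertical axis) for each of the 43 tested guidance genes, grouped by family and ordered by value, where the bars are standard errors from edgeR and the colour gives the call. Raised and lowered genes stand on both sides of 0 in every family but the neuropilins, and the lowest point is PLXNA4, which had 4 counts in all SCH-treated samples together.

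The promoters of the strongest movers are shown because raised and lowered members can be compared there by sequence. The windows are the 250 bases before the RefSeq start of the gene (GRCh38.p14), written 5′ to 3′ on the gene's strand, with GC boxes (GGGCGG on either strand, the core of the binding site of SP1) in capitals. They belong to the largest rise and the largest fall among the semaphorins (SEMA4F, chr2:74653997-74654246, plus strand, and SEMA3D, chr7:85187057-85187306, minus strand) and among the ephrins and Eph receptors (EFNB1, chrX:68828771-68829020, plus strand, and EPHB2, chr1:22710588-22710837, plus strand) at a mean count of at least 100. The RefSeq start lies 19 bases downstream of the deposited gene start in SEMA4F, 24 bases downstream in EFNB1, 1 base upstream in EPHB2 and 201 bases upstream in SEMA3D.
SEMA4F: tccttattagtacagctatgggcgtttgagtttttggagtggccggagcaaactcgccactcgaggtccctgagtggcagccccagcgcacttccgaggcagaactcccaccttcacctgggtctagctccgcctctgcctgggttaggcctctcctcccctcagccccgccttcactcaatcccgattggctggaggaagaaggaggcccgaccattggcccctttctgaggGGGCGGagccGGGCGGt
SEMA3D: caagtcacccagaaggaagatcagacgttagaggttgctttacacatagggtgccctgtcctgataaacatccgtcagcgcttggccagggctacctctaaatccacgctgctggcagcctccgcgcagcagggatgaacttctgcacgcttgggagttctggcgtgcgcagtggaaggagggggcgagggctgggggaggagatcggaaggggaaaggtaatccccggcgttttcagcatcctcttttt
EFNB1: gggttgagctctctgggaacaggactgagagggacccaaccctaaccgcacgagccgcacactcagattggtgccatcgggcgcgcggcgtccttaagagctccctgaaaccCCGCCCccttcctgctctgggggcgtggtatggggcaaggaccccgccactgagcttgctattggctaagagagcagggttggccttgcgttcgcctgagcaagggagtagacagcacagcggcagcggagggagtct
EPHB2: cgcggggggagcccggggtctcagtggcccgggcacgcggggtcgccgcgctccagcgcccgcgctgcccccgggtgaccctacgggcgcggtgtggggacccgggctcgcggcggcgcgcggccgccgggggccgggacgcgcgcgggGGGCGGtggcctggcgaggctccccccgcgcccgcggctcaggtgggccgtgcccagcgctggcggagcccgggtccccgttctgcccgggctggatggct
SEMA4F holds 2 GC boxes next to the start, EFNB1 and EPHB2 hold 1 each, and SEMA3D holds none. The GC content of the windows is 62.4% in SEMA4F, 57.6% in SEMA3D, 63.6% in EFNB1 and 84.8% in EPHB2.

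A promoter window was found for 47 of the 53 guidance genes. At least 1 GC box was present in 37 of the 47 (78.7%), beside 42.6% of all 35116 promoters in the table. That table was not limited to protein-coding genes or to 1 window per gene, as the guidance windows were. The shares and GC contents set beside it are therefore of unlike sets. It was present in 16 of 17 raised members (94.1%) and in 10 of 15 lowered members (66.7%). The other called members, of 18 raised and 18 lowered, had no window. The shares among all raised and all lowered genes were not computed, so the split cannot be called particular to the guidance genes. The E-box CACGTG was found in 4 of the 47 (8.51%, beside 6.35% of all promoters), in none of the raised and 2 of the lowered members. The AP-1 letters TGANTCA and the letters TATAAA were each found in 1 of the 47 (2.13%), beside 6.57% and 10.7% of all promoters. All motifs were searched on both strands. The median GC content was 66.4% in the guidance promoters (69.6% in the raised and 70% in the lowered members) and 58% in all promoters. These matches describe letters in a window and were not tested against the changes.

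The families were expressed at very different levels, and in each a single gene or a pair of genes held most of the transcript. EPHA2, a receptor for ephrin-A1 that is abundant in many carcinomas, stood first in both groups with 126, 129 and 116 FPKM in the vehicle-treated samples and 129.7, 118 and 113 FPKM in the SCH-treated samples (ENSG00000142627, chr1:16124337-16156087 on GRCh38). Its groups overlapped and it did not pass the test (log2 fold change -0.049 ± 0.053 (SE), adjusted p = 0.446). SEMA7A followed with vehicle, then PLXNB2, NRP1, SEMA3C and PLXNA1, and no range of these neighbours overlapped the next. EPHB4 and EPHB2 came after them with overlapping ranges. With SCH, PLXNB2 stood above SEMA7A, and the ranges of PLXNA1, EFNA4, EPHB4 and EFNB2 overlapped from one to the next. In all, 8 of the 53 genes lay above 10 FPKM with vehicle and 9 with SCH, and 29 and 27 lay above 1 FPKM.

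**Figure D2:**
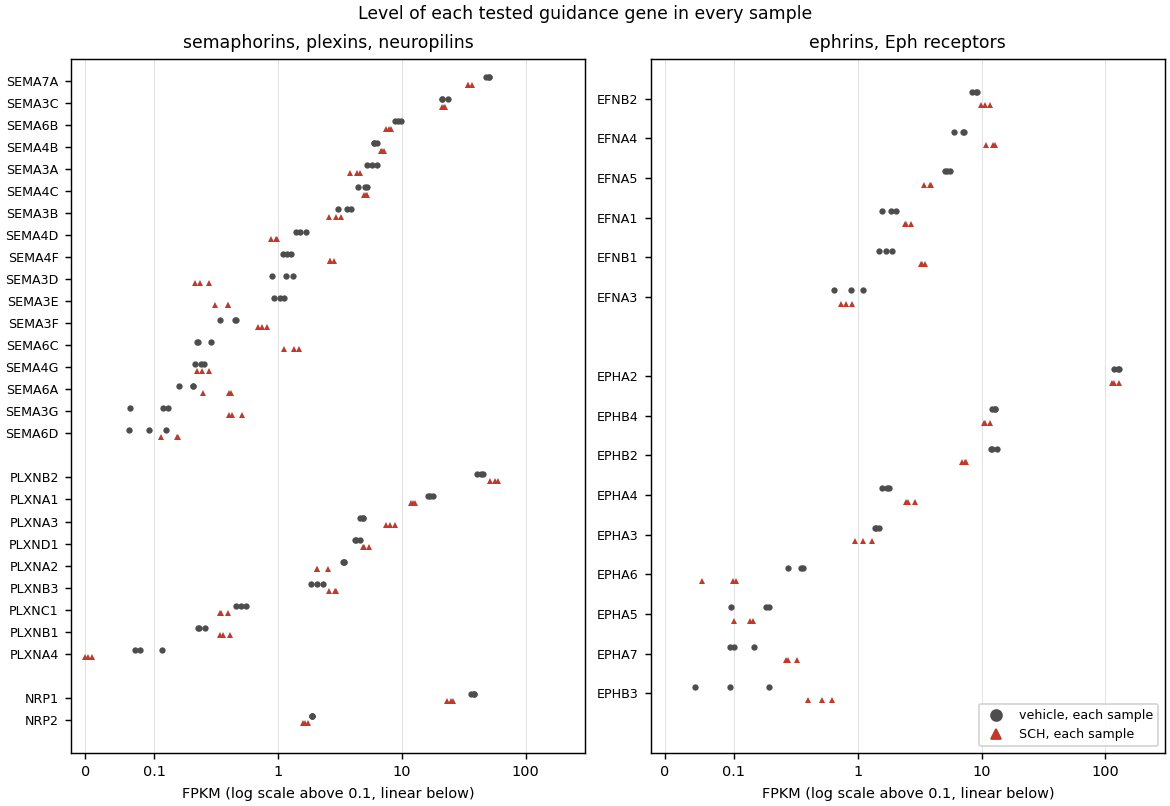
FPKM (horizontal axis, logarithmic above 0.1 and linear below) of each tested guidance gene in each of the 3 vehicle-treated samples (circles) and 3 SCH-treated samples (triangles), ordered within a family by the vehicle mean. EPHA2 lies furthest right with overlapping groups, whereas the circles and triangles of NRP1, SEMA7A, PLXNB2 and EPHB2 are apart.

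The summed levels of the families differed between the groups, in several cases through a single abundant gene. The semaphorin sum was 108, 107 and 106 FPKM with vehicle and 92.5, 91.6 and 89.0 FPKM with SCH. The neuropilin sum was 39.9, 38.3 and 40.4 FPKM with vehicle and 27.5, 26.6 and 24.9 FPKM with SCH. Both sums were lower in every SCH-treated sample than in any vehicle-treated one, whereas the plexin and ephrin sums were higher. Plexins summed to 75.6, 79.1 and 71.4 FPKM with vehicle and 93.3, 87.4 and 81.3 FPKM with SCH. Without PLXNB2 the plexin sums were 32.3, 33.6 and 31.0 FPKM with vehicle and 33.3, 30.9 and 29.5 FPKM with SCH, and without SEMA7A the semaphorin sums were 57.4, 57.2 and 58.5 FPKM and 55.8, 57.5 and 55.1 FPKM, so that both overlapped between the groups. Ephrins summed to 25.4, 26.0 and 24.6 FPKM with vehicle and 33.5, 33.6 and 32.4 FPKM with SCH, and stayed apart without EFNB2 (16.5 ± 0.787 and 22.5 ± 0.599 FPKM, SD, n = 3). The A-type ephrins without EFNA4 were lower with SCH, at 8.05 ± 0.0872 FPKM with vehicle and 7.17 ± 0.515 FPKM with SCH. The Eph sum of 155, 159 and 145 FPKM with vehicle and 154, 140.2 and 136 FPKM with SCH overlapped between the groups, and EPHA2 made up 81.0% and 83.9% of it. Without EPHA2 it was 29.1 ± 0.959 FPKM with vehicle and 22.98 ± 0.836 FPKM with SCH, without overlap, but the A-type receptors without EPHA2 were higher with SCH (3.77 ± 0.0630 and 4.29 ± 0.153 FPKM, also without overlap). Without the A-type receptors, the EphB sum went from 25.3 ± 0.991 to 18.7 ± 0.791 FPKM (SD, n = 3). Exact two-sided permutation tests of such sums cannot go below 0.1 with 3 samples against 3, so the sums are given without a p-value.

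**Figure D3:**
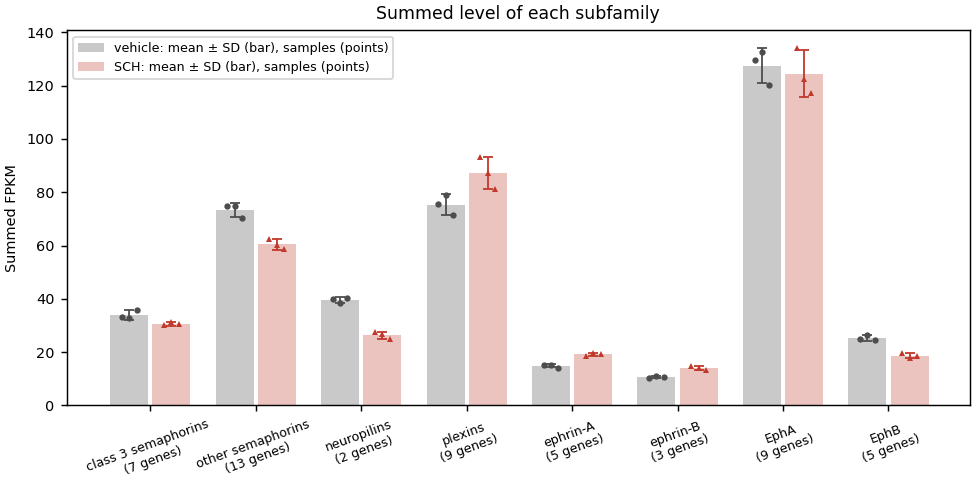
Summed FPKM (vertical axis) of 8 subfamilies in vehicle-treated and SCH-treated samples, where bars are means of 3 samples, error bars are SD and points are samples. The points of the groups overlap for EphA and are apart for the other 7 subfamilies, with neuropilins, EphB and both semaphorin groups lower and plexins and both ephrin groups higher after SCH, whereas without their most abundant gene the plexin sums overlap, and the other semaphorins (23.7 and 25.5 FPKM without SEMA7A) and ephrin-A (8.05 and 7.17 FPKM without EFNA4) turn direction, as do the overlapping EphA means (3.77 and 4.29 FPKM without EPHA2).

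Among the semaphorins, 17 were tested, of which 6 rose, 7 fell and 4 did not pass the test, where 29.3% of all tested genes rose and 29.4% fell. The most abundant, SEMA7A, a lipid-anchored semaphorin that binds PLXNC1 and integrins, had 50.8, 50.3 and 47.7 FPKM in the vehicle-treated samples and 36.7, 34.1 and 33.9 FPKM in the SCH-treated samples (ENSG00000138623, chr15:74409289-74433958). The groups did not overlap and the gene fell (log2 fold change -0.51 ± 0.051 (SE), adjusted p = 7.72e-09). It held 46.2% of the semaphorin sum with vehicle and 38.3% with SCH.

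The secreted class 3 semaphorins split by gene. SEMA3A, SEMA3C, SEMA3D and SEMA3E lie within 4444 kb of chromosome 7 (80742538 to 85186855). Of these, 3 fell, beside 29.4% of all tested genes, and SEMA3C did not pass the test. SEMA3D had 1.16, 0.889 and 1.32 FPKM in the vehicle-treated samples and 0.215, 0.278 and 0.233 FPKM in the SCH-treated samples (ENSG00000153993, chr7:84995553-85186855), the largest fall among called members with separate groups and 100 or more counts on average (log2 fold change -2.21 ± 0.18 (SE), adjusted p = 2.61e-10). SEMA3E, which binds PLXND1 without a neuropilin, had 1.12, 0.921 and 1.04 FPKM with vehicle and 0.398, 0.396 and 0.308 FPKM with SCH and fell as well (log2 fold change -1.50 ± 0.15 (SE), adjusted p = 1.09e-08). SEMA3A, the prototype repellent of growth cones, which signals through NRP1 and A-type plexins, had 5.78, 5.21 and 6.29 FPKM with vehicle and 3.83, 4.63 and 4.33 FPKM with SCH and fell (log2 fold change -0.44 ± 0.077 (SE), adjusted p = 3.32e-05). Its neighbour SEMA3C, a ligand of both neuropilins, was the most abundant class 3 gene at 21.0, 21.3 and 23.7 FPKM with vehicle and 21.0, 22.1 and 21.8 FPKM with SCH, with overlapping groups (log2 fold change -0.030 ± 0.055 (SE), adjusted p = 0.66). SEMA3B and SEMA3F, which lie on chromosome 3 and have been described as candidate tumour suppressors, moved in opposite directions. SEMA3B was lowered (log2 fold change -0.28, adjusted p = 0.0183), but its call was lost in 7 of 15 alternatives, namely DESeq2 (adjusted p = 0.0804), library size alone (-0.18), both limma fits (adjusted p = 0.0852 and 0.0876), and the fits without SCH replicate 3 (-0.19), vehicle replicate 1 (-0.26) or vehicle replicate 2 (-0.20). SEMA3F, a ligand of NRP2, rose from a low level (0.452, 0.458 and 0.338 FPKM with vehicle and 0.810, 0.691 and 0.738 FPKM with SCH, log2 fold change 0.83, adjusted p = 0.00115). SEMA3G rose from 13, 6 and 11 counts to 46, 41 and 40 counts (log2 fold change 2.08, adjusted p = 4.11e-06), having passed the filter through the SCH-treated samples alone.

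The membrane-bound semaphorins of classes 4 to 6 also held rises and falls. SEMA4F, a transmembrane semaphorin, had 1.19, 1.27 and 1.099 FPKM in the vehicle-treated samples and 2.65, 2.62 and 2.82 FPKM in the SCH-treated samples (ENSG00000135622, chr2:74654228-74683853). Every SCH-treated sample lay above the highest vehicle-treated one, and the gene showed the largest rise among called members with separate groups and 100 or more counts on average (log2 fold change 1.18 ± 0.10 (SE), adjusted p = 1.08e-09). SEMA4D, also known as CD100, is the ligand of PLXNB1 and had 1.498, 1.40 and 1.70 FPKM with vehicle and 0.983, 0.972 and 0.884 FPKM with SCH. It fell with no overlap (log2 fold change -0.70 ± 0.093 (SE), adjusted p = 7.60e-07). SEMA4B rose by a small amount (log2 fold change 0.18, adjusted p = 0.0158). SEMA4C, a ligand of PLXNB2, did not pass the test (log2 fold change 0.049, adjusted p = 0.596), with 5.01, 5.25 and 4.40 FPKM with vehicle and 5.22, 5.10 and 4.93 FPKM with SCH. SEMA4G did not pass either (log2 fold change 0.065, adjusted p = 0.858), and 27.4% of its exonic bases are covered by the antisense genes MRPL43 and AL133215.1. Of class 6, SEMA6B fell (9.27, 9.82 and 8.74 FPKM with vehicle and 7.89, 8.11 and 7.38 FPKM with SCH, log2 fold change -0.26, adjusted p = 0.0026), but with library size as the only scaling it did not pass (-0.15, adjusted p = 0.0570). SEMA6A, a ligand of PLXNA2, rose from a low level (0.208, 0.206 and 0.159 FPKM with vehicle and 0.403, 0.419 and 0.246 FPKM with SCH, log2 fold change 0.88 ± 0.22 (SE), adjusted p = 0.00145). SEMA6D, a ligand of PLXNA1, had 0.0927, 0.126 and 0.0634 FPKM with vehicle and 0.157, 0.152 and 0.113 FPKM with SCH and did not pass (log2 fold change 0.57 ± 0.33 (SE), adjusted p = 0.143). SEMA6C, chosen after its values were seen, went from 34, 24 and 24 counts with vehicle to 117, 164 and 155 counts with SCH, the largest rise of any tested guidance gene (log2 fold change 2.41 ± 0.18 (SE), adjusted p = 1.09e-10).

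Both neuropilins fell. NRP1, the shared co-receptor of class 3 semaphorins and of VEGF, had 38.0, 36.4 and 38.5 FPKM in the vehicle-treated samples and 25.7, 24.97 and 23.3 FPKM in the SCH-treated samples (ENSG00000099250, chr10:33177492-33336262). The lowest vehicle-treated sample lay above the highest SCH-treated one (log2 fold change -0.62 ± 0.049 (SE), adjusted p = 1.67e-10). NRP1 held 95.2% of the neuropilin sum with vehicle and 93.6% with SCH. NRP2 had 1.88, 1.90 and 1.87 FPKM with vehicle and 1.76, 1.65 and 1.61 FPKM with SCH and was only just past the threshold (log2 fold change -0.18 ± 0.075 (SE), adjusted p = 0.0427). Its call was lost in 9 of 15 alternatives, among them DESeq2 (-0.17), library size alone (-0.077), and the fits without SCH replicate 2 (-0.16), SCH replicate 3 (-0.14), vehicle replicate 1 (-0.18) or vehicle replicate 2 (-0.17).

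All 9 plexins were tested and all 9 were called (58.7% of all tested genes), 5 raised and 4 lowered. PLXNA4 is counted among them, though it passed the filter through the vehicle-treated samples alone. The B-type plexins, of which PLXNB1 and PLXNB2 are receptors of class 4 semaphorins, and PLXND1 rose. The A-type plexins, which pair with neuropilins and class 6 semaphorins, divided. PLXNB2, the most abundant plexin, had 43.3, 45.4 and 40.4 FPKM in the vehicle-treated samples and 60.0, 56.5 and 51.8 FPKM in the SCH-treated samples (ENSG00000196576, chr22:50274979-50307627), and rose without overlap (log2 fold change 0.38 ± 0.055 (SE), adjusted p = 2.90e-06). PLXNB1 rose from a low level (0.260, 0.227 and 0.229 FPKM with vehicle and 0.362, 0.412 and 0.340 FPKM with SCH, log2 fold change 0.63, adjusted p = 0.00699). PLXNB3 rose too (2.07, 2.31 and 1.84 FPKM with vehicle and 2.97, 2.89 and 2.56 FPKM with SCH, log2 fold change 0.43, adjusted p = 5.22e-04), with 20.4% of its exonic bases shared with SRPK3, so that part of its count is uncertain. PLXND1, a receptor in vascular patterning, rose by a small amount (4.27, 4.59 and 4.17 FPKM with vehicle and 5.46, 4.97 and 4.83 FPKM with SCH, log2 fold change 0.22, adjusted p = 0.0068). PLXNA1, the second most abundant plexin, had 16.9, 17.7 and 16.1 FPKM with vehicle and 12.7, 12.2 and 11.9 FPKM with SCH and fell (log2 fold change -0.47 ± 0.051 (SE), adjusted p = 4.00e-08). PLXNA2 fell as well (3.37, 3.40 and 3.40 FPKM with vehicle and 2.53, 2.08 and 2.07 FPKM with SCH, log2 fold change -0.61 ± 0.074 (SE), adjusted p = 1.92e-07), whereas PLXNA3 rose (4.82, 4.86 and 4.604 FPKM with vehicle and 8.87, 8.02 and 7.43 FPKM with SCH, log2 fold change 0.76 ± 0.063 (SE), adjusted p = 3.90e-10). These 3 A-type genes each had separate groups, and the direction of each held in all 15 alternatives. PLXNA4, chosen after its values were seen, had 38, 22 and 24 counts with vehicle and 1, 3 and 0 with SCH. Its pooled ratio of vehicle to SCH was 20.9 (95% exact interval 7.88 to 78.6, counting error only), and its call rests on few reads (adjusted p = 5.31e-07). PLXNC1, the receptor of SEMA7A, fell (0.501, 0.458 and 0.549 FPKM with vehicle and 0.345, 0.343 and 0.396 FPKM with SCH, log2 fold change -0.48, adjusted p = 0.0129), but not past the threshold by DESeq2 (-0.47) or without SCH replicate 2 (-0.44) or vehicle replicate 3 (-0.41).

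Of the 6 tested ephrins, 4 rose, 1 fell and 1 did not pass, beside 29.3% raised and 29.4% lowered over all tested genes. EFNB1, a transmembrane ligand of EphB receptors, had 1.90, 1.71 and 1.49 FPKM in the vehicle-treated samples and 3.24, 3.52 and 3.29 FPKM in the SCH-treated samples (ENSG00000090776, chrX:68828997-68842147). All SCH-treated samples were higher (log2 fold change 0.97 ± 0.12 (SE), adjusted p = 3.96e-07). EFNB2, the preferred ligand of EPHB4 and a marker of arterial endothelium, had 8.34, 9.19 and 8.98 FPKM with vehicle and 11.6, 10.6 and 9.81 FPKM with SCH and rose (log2 fold change 0.27 ± 0.069 (SE), adjusted p = 0.00196). An antisense gene, AL138689.2, covers 26.2% of its exonic bases, and the strand setting of the counting is not given in the sources used here, so its reads cannot be assigned with certainty. EFNA4, EFNA3 and EFNA1 lie within 71.1 kb of chromosome 1 (155063731 to 155134857). EFNA4 had 7.18, 7.12 and 5.98 FPKM with vehicle and 10.9, 12.8 and 12.3 FPKM with SCH and rose (log2 fold change 0.82 ± 0.11 (SE), adjusted p = 7.82e-07). EFNA1, a ligand of EPHA2, had 2.03, 1.87 and 1.56 FPKM with vehicle and 2.71, 2.46 and 2.40 FPKM with SCH and rose (log2 fold change 0.46 ± 0.15 (SE), adjusted p = 0.00929). EFNA3 between them did not pass the test (log2 fold change -0.11, adjusted p = 0.745). An overlapping gene, AL691442.1, shares 44.7% of the exonic bases of EFNA3 and a smaller part of those of EFNA4, so their counts are uncertain. EFNA5 was the ephrin that fell (5.27, 5.04 and 5.60 FPKM with vehicle and 3.88, 3.41 and 3.85 FPKM with SCH, log2 fold change -0.52, adjusted p = 5.10e-06).

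Of the 9 tested Eph receptors, 3 rose, 4 fell and 2 did not pass, and the shares over all tested genes were 29.3% raised and 29.4% lowered. These counts include EPHA6, which passed the filter through the vehicle-treated samples alone, and EPHB3, which passed through the SCH-treated samples alone. EPHB2, which binds B-type ephrins, had 11.98, 13.4 and 12.1 FPKM in the vehicle-treated samples and 7.40, 6.95 and 7.43 FPKM in the SCH-treated samples (ENSG00000133216, chr1:22710839-22921500). The SCH-treated samples all lay below the vehicle-treated ones, and among the guidance genes EPHB2 had the smallest adjusted p (log2 fold change -0.79 ± 0.056 (SE), adjusted p = 2.58e-11). EPHB4, the partner of EFNB2 in the separation of arteries and veins, had 13.0, 12.9 and 12.2 FPKM with vehicle and 11.7, 10.4 and 10.6 FPKM with SCH and fell (log2 fold change -0.23 ± 0.058 (SE), adjusted p = 0.00198). With library size as the only scaling, it did not pass (-0.12, adjusted p = 0.0746). EPHA4, which binds ephrins of both types, had 1.798, 1.58 and 1.72 FPKM with vehicle and 2.90, 2.55 and 2.45 FPKM with SCH and rose (log2 fold change 0.62 ± 0.094 (SE), adjusted p = 4.84e-06). EPHA3 was lowered (1.40, 1.48 and 1.39 FPKM with vehicle and 0.954, 1.31 and 1.098 FPKM with SCH, log2 fold change -0.35, adjusted p = 0.0204), but its call was lost in 6 of 15 alternatives, namely DESeq2 (adjusted p = 0.101), library size alone (-0.25), limma on log2(FPKM + 0.1) (adjusted p = 0.0585), and the fits without SCH replicate 1 (-0.24), SCH replicate 3 (-0.32) or vehicle replicate 2 (-0.32). EPHA7 rose from a very low level (0.0997, 0.0939 and 0.146 FPKM with vehicle and 0.322, 0.266 and 0.273 FPKM with SCH, log2 fold change 1.33, adjusted p = 2.56e-04). EPHA6 fell (0.276, 0.351 and 0.362 FPKM with vehicle and 0.0533, 0.0994 and 0.105 FPKM with SCH, log2 fold change -1.92, adjusted p = 1.45e-05). EPHA5 did not pass (log2 fold change -0.31, adjusted p = 0.386). EPHB3, chosen after its values were seen, went from 4, 8 and 16 counts with vehicle to 32, 45 and 55 counts with SCH (log2 fold change 2.22 ± 0.36 (SE), adjusted p = 1.25e-05).

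Ligand and receptor transcripts of known pairs changed together in some cases and apart in others. In the SEMA4D and PLXNB1 pair the ligand fell and the receptor rose, and the ratio of their FPKM values was 5.77, 6.17 and 7.43 with vehicle and 2.72, 2.36 and 2.60 with SCH. In the EFNB1 and EPHB2 pair the ligand rose and the receptor fell, and the ratio was 0.159, 0.127 and 0.123 with vehicle and 0.437, 0.507 and 0.442 with SCH. EFNB2 over EPHB4 moved the same way, from 0.698 ± 0.048 to 0.979 ± 0.048 (SD, n = 3). In these 3 pairs the opposite changes of ligand and receptor were both called, as they were for SEMA6A over PLXNA2 (0.056 ± 0.0084 with vehicle and 0.160 ± 0.041 with SCH). Where ligand and receptor fell alike, the ratio overlapped between the groups: SEMA7A over PLXNC1 was 99.4 ± 11.6 with vehicle and 97.2 ± 10.6 with SCH, and SEMA3A over NRP1 was 0.153 ± 0.010 and 0.173 ± 0.021. SEMA3A over PLXNA1 and SEMA3C over NRP2 overlapped as well. EFNA1 over EPHA2 was 0.015 ± 0.0014 with vehicle and 0.021 ± 0.00024 with SCH, without overlap, and EPHA2 exceeded this ligand many times over in every sample. SEMA3C over PLXND1 (5.08 ± 0.548 and 4.27 ± 0.371) and SEMA4C over PLXNB2 (0.113 ± 0.0040 and 0.091 ± 0.0042) were lower with SCH, and SEMA6D over PLXNA1 was higher (0.0055 ± 0.0016 and 0.011 ± 0.0017), each with separate groups. These ratios describe transcripts and not bound protein.

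**Figure D4:**
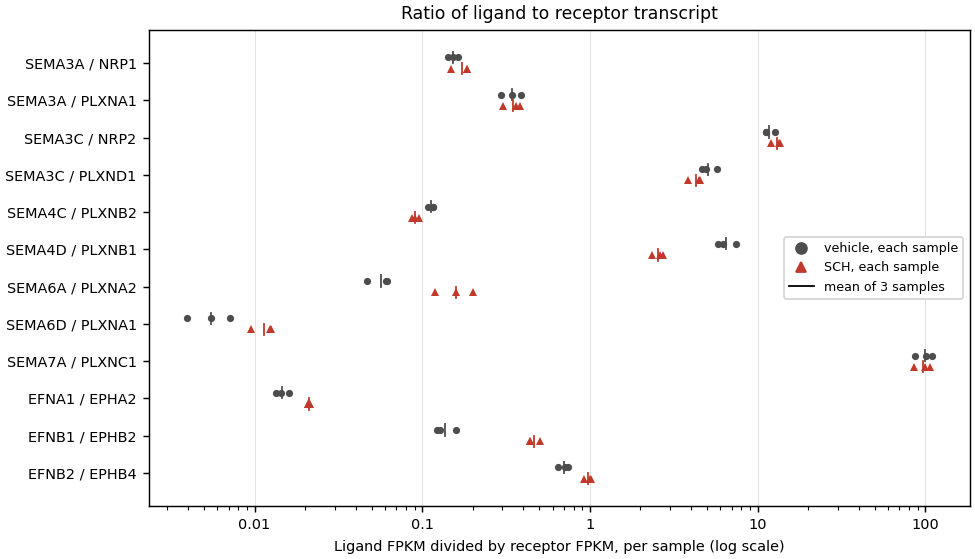
Ratio of ligand to receptor FPKM (horizontal axis, logarithmic) in each vehicle-treated (circles) and SCH-treated (triangles) sample for 12 ligand and receptor pairs, with short lines at the means of 3 samples. SEMA4D over PLXNB1 moves to the left and EFNB1 over EPHB2 to the right without overlap, while the groups overlap for SEMA7A over PLXNC1, SEMA3C over NRP2 and both SEMA3A pairs.

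The guidance genes include some with very long bodies, and the counts of rises and falls differed with genomic span, the distance from the first to the last base of the gene. Of the 10 tested members that span over 200 kb, none rose, 8 fell and SEMA6D (590 kb) and EPHA5 (351 kb) did not pass, with a median log2 fold change of -0.57. The falls include PLXNA4 and EPHA6, which passed the filter through the vehicle-treated samples alone, and without them 6 of 8 fell. Of the 6 long members with a mean count of 100 or more, all 6 fell (EPHA3 with a call lost in 6 of 15 alternatives), beside 18.9% raised and 53.5% lowered of the 740 such genes in the whole table. Among all 1021 tested genes of that span, 14.6% rose and 55.9% fell, with a median of -0.36. Of the 33 shorter members, 18 rose, 10 fell and 5 did not pass, with a median of 0.22, where all 13715 shorter genes had 30.4% raised, 27.4% lowered and a median of 0.012. The rises include SEMA3G and EPHB3, which passed the filter through the SCH-treated samples alone. Without them 16 of 31 rose and 10 fell, with a median of 0.18. SEMA3D (191 kb) lay just inside the limit, and EPHB2 (211 kb) and PLXNA2 (222 kb) just over it. Across the 43 members, which share the same 6 libraries and are not independent replicates, log10 span and log2 fold change had Pearson's r = -0.55 and Spearman's rho = -0.55, beside -0.12 and -0.071 across all tested genes. Without SEMA3G, PLXNA4, EPHA6 and EPHB3, which passed the filter through a single group, r was -0.41 and rho -0.46 across 39 members. The limit of 200 kb was chosen after the values were seen. The part of span in the single changes was not tested.

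**Figure D5:**
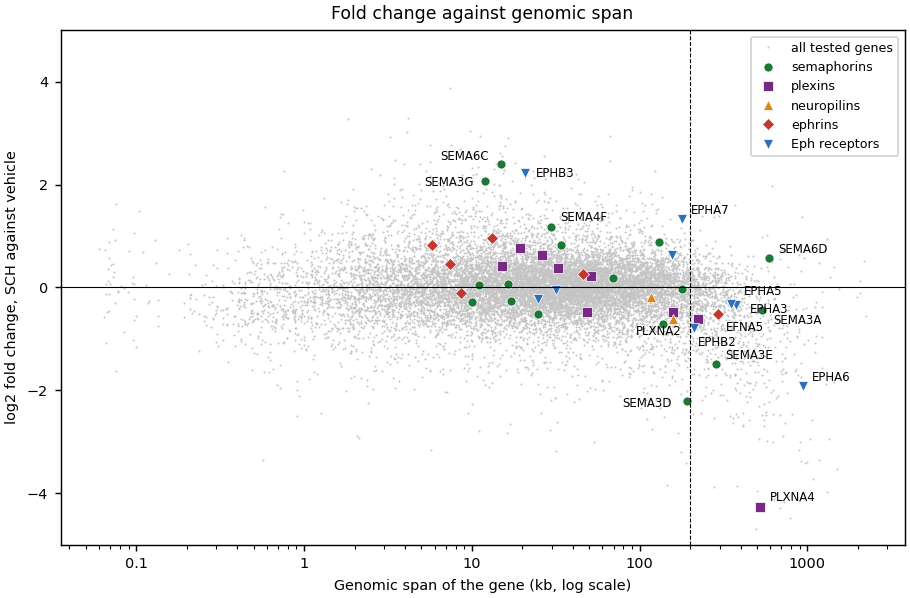
Log2 fold change of SCH against vehicle (vertical axis) against genomic span in kb (horizontal axis, logarithmic) for all tested genes (grey) and the 43 tested guidance genes, coloured by family, with a dashed line at 200 kb. No guidance gene to the right of the line was raised, and SEMA6D, the single one there with a value over 0, did not pass the test.

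A further 10 guidance genes did not pass the filter on low counts. SEMA5B and EPHA8 had no count in any sample, which allows up to 3 counts in a group of samples. SEMA4A had 2, 2 and 6 counts with vehicle and none with SCH. EPHA1 had 12 counts with vehicle and 9 with SCH, a ratio of 1.33 (95% exact interval 0.514 to 3.57, counting error only). EPHB1, EPHB6, EPHA10, EFNA2, EFNB3 and SEMA5A had 6 counts or fewer in either group. They were not tested in the fit behind the calls above. Without the filter on low counts, 51 guidance genes were tested and 36 were changed, 18 raised and 18 lowered. NRP2 lost its call in that fit (adjusted p = 0.151 by edgeR), so a gene of these 10 was called lowered there. DESeq2 also tested 51, and its 32 called genes were all among the 36 called above.

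Among the intracellular effectors of plexins and Eph receptors, the relatives MICAL1 and MICAL2 went opposite ways. Of 76 listed, 68 were tested, 22 rose, 24 fell and 22 did not pass (67.6% changed, near the 58.7% of all tested genes), with a median log2 fold change of 0.024. Of the 68, 2 passed the filter through a single group. The list includes PLXDC2, a membrane protein named for a plexin-like domain and not an effector, and without it 45 of 67 had changed, 22 raised and 23 lowered. MICAL1, an oxidase of actin that acts downstream of A-type plexins, had 2.88, 3.08 and 2.62 FPKM with vehicle and 7.82, 6.98 and 7.04 FPKM with SCH and rose (log2 fold change 1.34 ± 0.075 (SE), adjusted p = 5.59e-13). Its relative MICAL2 had 13.7, 14.5 and 14.0 FPKM with vehicle and 8.07, 8.17 and 7.90 FPKM with SCH and fell (log2 fold change -0.81 ± 0.047 (SE), adjusted p = 1.06e-12). DPYSL3, a collapsin response mediator that carries semaphorin signals to the cytoskeleton, rose (0.450, 0.436 and 0.568 FPKM with vehicle and 1.41, 1.38 and 1.71 FPKM with SCH, log2 fold change 1.63 ± 0.14 (SE), adjusted p = 1.34e-09). RRAS, a substrate of the plexin GTPase-activating part, was raised by 0.89 (adjusted p = 3.21e-11), RHOD, which binds PLXNA1, by 0.96 (adjusted p = 1.47e-06), and SIPA1, which switches off Rap, by 0.96 (adjusted p = 1.90e-12). MICALL2 rose by 1.205 (adjusted p = 5.15e-11), and PLXDC2 was lowered at -1.42 (adjusted p = 1.11e-10). RHOA, at 268 FPKM with vehicle and 224 FPKM with SCH, and RAC1, at 145 and 126 FPKM, were the abundant GTPases of the list and fell by small amounts (log2 fold changes -0.26 and -0.20). Chosen after their values were seen, as RHOA and RAC1 were, GRIP1, a PDZ adaptor that binds B-type ephrins, went from 1.02 ± 0.0323 to 0.0566 ± 0.0104 FPKM (SD, n = 3), and RND1, a GTPase that binds plexins, went from 0.283 ± 0.0408 to 1.30 ± 0.242 FPKM. NEDD9, a scaffold of focal adhesions, went from 0.175 ± 0.0179 to 0.825 ± 0.0611 FPKM (log2 fold change 2.22). Each of these 3 had a mean count under 100, and GRIP1 passed the filter through the vehicle-treated samples alone.

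Surface partners of the receptors, and the sheddases that release them, held rises of SDC4 and of receptor kinases and falls of 3 VEGF ligands. Of 36 listed, 27 were tested, 13 rose, 5 fell and 9 did not pass, beside 29.3% raised and 29.4% lowered of all tested genes, with a median log2 fold change of 0.14. The difference between these counts was not tested. Of the 27, 3 passed the filter through a single group. At a mean count of 100 or more, 11 of 21 rose and 5 fell, where 66.6% of all genes at that depth had changed. SDC4, a heparan sulfate proteoglycan of the cell surface, had 97.1, 95.5 and 91.9 FPKM with vehicle and 176, 173 and 176 FPKM with SCH and rose without overlap (log2 fold change 0.88 ± 0.046 (SE), adjusted p = 1.77e-13). FURIN, which cleaves class 3 semaphorins, was raised by 0.47 (adjusted p = 5.27e-07), and the receptor kinases MST1R, which associates with B-type plexins, and FGFR1 by 0.61 (adjusted p = 6.47e-08) and 0.46 (adjusted p = 3.42e-08). The integrin ITGA1, a collagen receptor subunit, was raised by 0.43 (adjusted p = 4.39e-05). Of the VEGF family ligands, which share the neuropilins with class 3 semaphorins, VEGFA, VEGFB and VEGFC went the other way, while PGF, also named after its value was seen, rose at a very low level, having passed the filter through a single group (0.0665, 0.0903 and 0.109 FPKM with vehicle and 0.169, 0.245 and 0.162 FPKM with SCH, log2 fold change 1.11, adjusted p = 0.0101). VEGFA had 11.1, 11.6 and 11.1 FPKM with vehicle and 8.51, 8.12 and 7.59 FPKM with SCH and fell (log2 fold change -0.49 ± 0.052 (SE), adjusted p = 3.09e-08). VEGFB had 38.5, 38.1 and 38.7 FPKM with vehicle and 26.3, 25.1 and 27.9 FPKM with SCH and fell (log2 fold change -0.55 ± 0.062 (SE), adjusted p = 8.11e-08). VEGFC, a ligand of NRP2, had 40.8, 42.8 and 45.5 FPKM with vehicle and 29.8, 29.8 and 28.97 FPKM with SCH and fell (log2 fold change -0.55 ± 0.056 (SE), adjusted p = 1.24e-08). All 3 had separate groups, as had NRP1 above. Together the effectors and partners had 64 of 95 tested genes changed (67.4%), 35 raised and 29 lowered, beside 58.7% of all tested genes. Of the 95, 5 passed the filter through a single group.

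The other guidance families, netrins, Slits, Robos, Nogo and their receptors, were measurable in a smaller part. Of 30 listed, 15 were tested, 6 rose, 7 fell and 2 did not pass, beside 29.3% raised and 29.4% lowered of all tested genes, with a median log2 fold change of -0.22. Of the 15, 2 passed the filter through a single group. At a mean count of 100 or more, 3 of 12 rose and 7 fell, where 66.6% of all genes at that depth had changed. RTN4, the Nogo gene, which encodes an inhibitor of neurite growth and is also a common protein of the endoplasmic reticulum, fell from 96.3 ± 1.76 to 69.4 ± 3.53 FPKM (log2 fold change -0.48 ± 0.047 (SE), adjusted p = 7.23e-09). NTN4, a basement membrane netrin, fell from 11.5 ± 0.717 to 7.91 ± 0.425 FPKM (log2 fold change -0.54, adjusted p = 4.60e-07). SRGAP1, a Robo effector, fell too (log2 fold change -0.48, adjusted p = 6.93e-07). ROBO1, a Slit receptor, rose (from 2.37 ± 0.0856 to 3.32 ± 0.400 FPKM, log2 fold change 0.48, adjusted p = 2.41e-05), and ROBO4 fell (from 2.203 ± 0.0959 to 1.72 ± 0.125 FPKM, log2 fold change -0.36, adjusted p = 0.0025), with 16.9% of its exonic bases covered by antisense genes. Of 38 integrin and laminin subunits, the matrix receptors and matrix chains taken for comparison, 25 passed the filter, 1 of them through a single group. Of these, 6 were raised and 8 were lowered (56.0% in all, beside 58.7%), and their median was -0.074 on the log2 scale. ITGAV rose (from 11.5 ± 0.755 to 18.5 ± 0.910 FPKM, log2 fold change 0.68, adjusted p = 4.42e-10), and LAMA4 fell (from 1.26 ± 0.0711 to 0.481 ± 0.0254 FPKM, log2 fold change -1.40, adjusted p = 2.63e-10).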

How the data were processed

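Poly-T purified mRNA of 3 vehicle-treated and 3 SCH-treated MDA-MB-231 samples was sequenced on an Illumina HiSeq instrument. For each gene the authors deposited an unnormalized raw count and, by sample, an FPKM value. Had the counts been scaled to gene length and the total count on genes, the values would be 0.992 to 1.067 times the deposited FPKM. These factors are medians over genes in each sample, with the higher ones in the SCH-treated samples. Levels and sums in FPKM carry this difference in scale between the groups. The submitters' processing notes name CASAVA 1.8, HISAT2 2.0.5, featureCounts 1.5.0-p3, DESeq2 1.20.0 and GRCh38. Whether reads were counted by strand, and the annotation, are not given in the sources used here. All 58735 gene identifiers are in GENCODE release 29 with the same coordinates.

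Counts were tested in R 4.3.3 with edgeR 4.0.16 (TMM, filterByExpr, quasi-likelihood test, no covariates), with Benjamini-Hochberg adjustment over all 14736 tested genes. The common biological coefficient of variation was 5.17%. No library was a copy of another: within a group, the chi-square of their counts was 2.12 to 5.75 per degree of freedom. The standard error is the size of the log2 fold change over the square root of F. FPKM served for levels. Promoter windows came from RefSeq. Scripts were tested on simulated data. Python 3.11.15 was used for tables and figures.

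Members, lists, pairs and tests were chosen with earlier results of these data known. The text names the tested genes of the listed pairs, the most abundant member of each family, the 10 largest changes among called members with separate groups and 100 or more counts on average, the largest changes in each other list by the same rule, and others where marked as chosen after their values were seen or given within a count. The lists were intracellular effectors, surface partners and sheddases, other guidance families, integrin and laminin subunits, and markers of the line, endothelium, leukocytes and neural cells. Alternatives were RLE size factors, upper quartile, library size only, no filter, a minimum of 10 counts in each sample, DESeq2 1.42.0, limma 3.58.1 on log2(FPKM + 1) and log2(FPKM + 0.1), a replicate block, each replicate left out, and other thresholds. Counts over genes past the filter in both groups and of the effectors without PLXDC2, and family sums without the most abundant gene, were added after the values were seen.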

Additional observations from a re-analysis of the deposited data

How the results depend on the processing

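Of the 36 called guidance genes, none reversed its sign in any of up to 15 alternatives and 30 were called in every one; the others were SEMA3B, SEMA6B, NRP2, PLXNC1, EPHA3 and EPHB4. The count of changed guidance genes was 32 of 51 tested with DESeq2, all of them among the 36, and 32 of 39 tested with at least 10 counts in every sample. It was 33 to 35 with a replicate left out, and 31 with library size only, where 18 rose and 13 fell. That scaling moved the median of all log2 fold changes to 0.099 and that of the guidance genes to 0.073, and it called 5519 genes of the whole table raised and 3295 lowered, beside 4318 and 4332. A limit of 1 on the log2 scale left 9 changed guidance genes, 5 raised and 4 lowered, with 10 of 95 effectors and partners and 2 of 15 genes of other guidance families, beside 8.77% of all tested genes. At a mean count of 100 or more, a limit added after the values were seen, 26 of 29 guidance genes were changed, beside 66.6% of all genes at that depth. Of them, 11 were raised and 15 lowered. Of the 7 guidance genes that did not pass the test, 5 changed sign in at least 1 alternative: EPHA2 was 0.054 with library size only and -0.098 to 0.0030 with a replicate left out (above 0 without SCH replicate 3), SEMA3C was 0.073 with library size only and -0.058 to 0.030 with a replicate left out (above 0 without vehicle replicate 3), SEMA4C was -0.018 to 0.10 with a replicate left out (below 0 without vehicle replicate 3), SEMA4G was -0.016 without SCH replicate 2, and EFNA3 was 0.089 without vehicle replicate 2. SEMA6D and EPHA5 kept their sign. The cause was not tested. Samples with the same replicate number did not deviate together (correlations 0.046, -0.022 and 0.022), and with the replicate number as a block 36 guidance genes were changed. At this depth 10 of the 53 guidance genes did not pass the filter on low counts, and low genes such as SEMA6D have wide errors (SE 0.33).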

Other observations

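The 10 leukocyte markers were low, with a summed level of 0.9504, 1.199 and 0.663 FPKM with vehicle and 0.821, 0.934 and 0.752 FPKM with SCH, CD3D and MS4A1 at 0 counts and CD14 the most abundant (0.417 FPKM with vehicle). Of the 3 that were tested, PTPRC, the common leukocyte antigen, was lowered (log2 fold change -2.75, mean count 21, adjusted p = 8.80e-07 by edgeR), and it passed the filter through the vehicle-treated samples alone. The 10 neural markers summed to 8.40, 8.81 and 8.52 FPKM with vehicle and 7.25, 6.95 and 7.495 FPKM with SCH, with 2 raised and 2 lowered of 6 tested (29.3% and 29.4% of all tested genes), STMN2 at 0 counts, and MBP the most abundant (5.91 FPKM with vehicle). FOXA1 and GATA3, transcription factors of luminal breast cells, moved in opposite directions, FOXA1 from 0.995 to 2.24 FPKM (log2 fold change 1.16, adjusted p = 4.41e-07) and GATA3 from 3.84 to 2.24 FPKM (log2 fold change -0.79, adjusted p = 4.36e-06). CAV1, the coat protein of caveolae, showed the largest fall among the 10 markers of the line, from 103 to 45.9 FPKM (log2 fold change -1.17, adjusted p = 8.86e-14). Their part in the changes of the guidance genes was not tested.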
